A study of Mus musculus with 3 samples.

Results

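DNA replication and nucleotide supply genes are described here in mast cell progenitors (MCps) that lack p85α, 1 of the regulatory subunits of Class IA PI3K, against wild type (WT) MCps. The list holds 40 genes, chosen by name: subunits of the origin recognition complex, the licensing factors and their inhibitor geminin, the MCM helicase and its activators, the replicative polymerases and primase, the sliding clamp and its loader, the single-strand binding protein RPA, the enzymes that join Okazaki fragments, and 5 enzymes that supply deoxynucleotides. Of these, 38 had at least 1 probe on the array under their name or, for *Mcm6* and the *Orc* genes, the older names *Mcmd*, *Orc1l*, *Orc2l*, *Orc5l* and *Orc6l* (54 probes), among 27951 gene names and 41157 probes tested. *Rfc1* and *Gins2* had none under the names searched.

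MCps are immature mast cells. Mononuclear bone marrow cells of 3 WT and 3 *p85α−/−* mice were kept for 7 days with 10 ng/mL of IL-3, and cells positive for both KIT and the IgE receptor were sorted and then held for 48 hours with 100 ng/mL of SCF, the ligand of KIT. All cultures of both genotypes received IL-3 and SCF, and the labels give neither age nor strain of the mice. Each of 3 Agilent arrays compared 1 WT culture, labeled with Cy3, with 1 *p85α−/−* culture, labeled with Cy5, after amplification of the cDNA by a global PCR protocol. No array had the dyes exchanged, so an effect of genotype and an effect of dye cannot be told apart. In such bulk RNA, fewer cells of a type and less RNA per cell cannot be told apart either. The 4 probes of *Pik3r1*, the gene of p85α, had mean log2 ratios of *p85α−/−* over WT of 0.59, −0.58, 0.32 and −0.04. The channels' genotypes could not be checked by these values, and directions below follow the labels.

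Replication begins at origins bound by the origin recognition complex, where CDC6 and CDT1 load the MCM helicase in G1 phase. In S phase the helicase is activated and unwinds DNA, RPA coats the exposed strands, primase and polymerase α start each strand, and polymerases δ and ε extend it on the clamp PCNA, which the RFC complex loads. FEN1 and DNA ligase 1 join the short fragments of the lagging strand. Many of these genes are transcribed in waves by E2F factors as cells leave G1, and growth factors such as SCF drive mast cells through that step.

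Promoter sequences are shown because E2F control is what these genes are known to share. RefSeq promoter sequences on the mouse build GRCm38.p6 were found for 32 of the 38 genes, and the 250 bases before each start site were searched on both strands for 4 E2F-type motifs, TTTCCCGC, TTTCGCGC, TTTGCCGC and TTTGGCGC. TTTGGCGC and the reverse complement of TTTCGCGC can overlap. At least 1 motif was present in 7 of the 32 genes (21.9%), counting any promoter of a gene, and in 583 of all 27025 genes with a promoter sequence (2.16%). Of all 32851 promoters, 1.86% held one. The 7 were *Cdc6*, *Mcm5*, *Mcm6*, *Mcm7*, *Orc1*, *Pola1* and *Rfc3*. The sequences below are those of *Mcm2* (chr6:88898781-88899030, minus strand), *Pola1* (chrX:93632156-93632405, minus strand) and *Mcm6* (chr1:128359706-128359955, minus strand), 5′ to 3′, with motif letters in capitals. They were chosen to show a gene with a higher level and no motif, a gene with a higher level and 1 motif, and the gene with the lowest ratio and 3 motifs.
Mcm2: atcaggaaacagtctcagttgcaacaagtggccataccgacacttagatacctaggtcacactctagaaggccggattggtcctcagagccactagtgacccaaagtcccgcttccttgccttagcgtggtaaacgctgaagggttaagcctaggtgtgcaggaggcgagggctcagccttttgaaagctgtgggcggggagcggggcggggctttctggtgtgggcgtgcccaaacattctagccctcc
Pola1: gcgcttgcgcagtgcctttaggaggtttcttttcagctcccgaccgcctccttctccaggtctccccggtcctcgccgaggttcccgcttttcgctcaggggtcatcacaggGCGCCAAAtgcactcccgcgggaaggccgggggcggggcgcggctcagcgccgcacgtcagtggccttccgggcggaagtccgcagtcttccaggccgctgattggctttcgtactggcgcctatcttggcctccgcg
Mcm6: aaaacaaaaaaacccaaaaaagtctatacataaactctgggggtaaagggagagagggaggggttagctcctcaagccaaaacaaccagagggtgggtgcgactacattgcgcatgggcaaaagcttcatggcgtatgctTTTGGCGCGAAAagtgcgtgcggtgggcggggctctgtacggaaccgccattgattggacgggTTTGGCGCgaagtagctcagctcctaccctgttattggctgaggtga
The motif of *Pola1* began 138 bases before the start site, as the reverse complement of TTTGGCGC. In *Mcm6* the motifs began 110, 106 and 47 bases before the start site, and those at 110 and 106 overlap. A match describes the letters of this window and is not a measured binding site.

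Of the 38 genes, 26 had a mean log2 ratio above 0 (68.4%) and 12 had one below 0, where 43% of all gene names lay above 0. The median over the 38 genes was 0.44, against −0.07 over all gene names. On replicates 1, 2 and 3 the median of the 38 was 0.56, 0.33 and 0.68, and 29, 23 and 27 of them lay above 0. The median was 0.09 without replicate 1 and was 0.91 without replicate 2. For genes with several probes, these values are those of the brightest probe.

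A gene was taken as past both criteria when it differed by at least 1.5-fold with an unadjusted p under 0.05 in limma's test. Past both criteria, 6 of the 38 genes were higher in *p85α−/−* MCps (15.8%), and 3.14% of all gene names were. They are *Mcm2*, *Orc6*, *Pola1*, *Rpa1*, *Rfc5* and *Fen1*. None of the 38 was lower past both criteria, against 2.08% of all gene names. With Benjamini-Hochberg adjustment, limma called 0 of the 41157 probes at an adjusted p under 0.05 (0%), while 1829 had an unadjusted p under 0.05, so none of the 6 genes passes an adjusted threshold. On all 3 arrays, 12 genes were higher and 0 were lower, where 11.8% of all gene names were higher and 14.2% were lower. In 6 genes every *p85α−/−* culture lay above every WT culture, against 4.44% of all gene names, and in 0 genes every one lay below, against 6.44%. These 6 are *Mcm2*, *Orc6*, *Pola1*, *Rfc5*, *Fen1* and *Dut*.

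**Figure D1:**
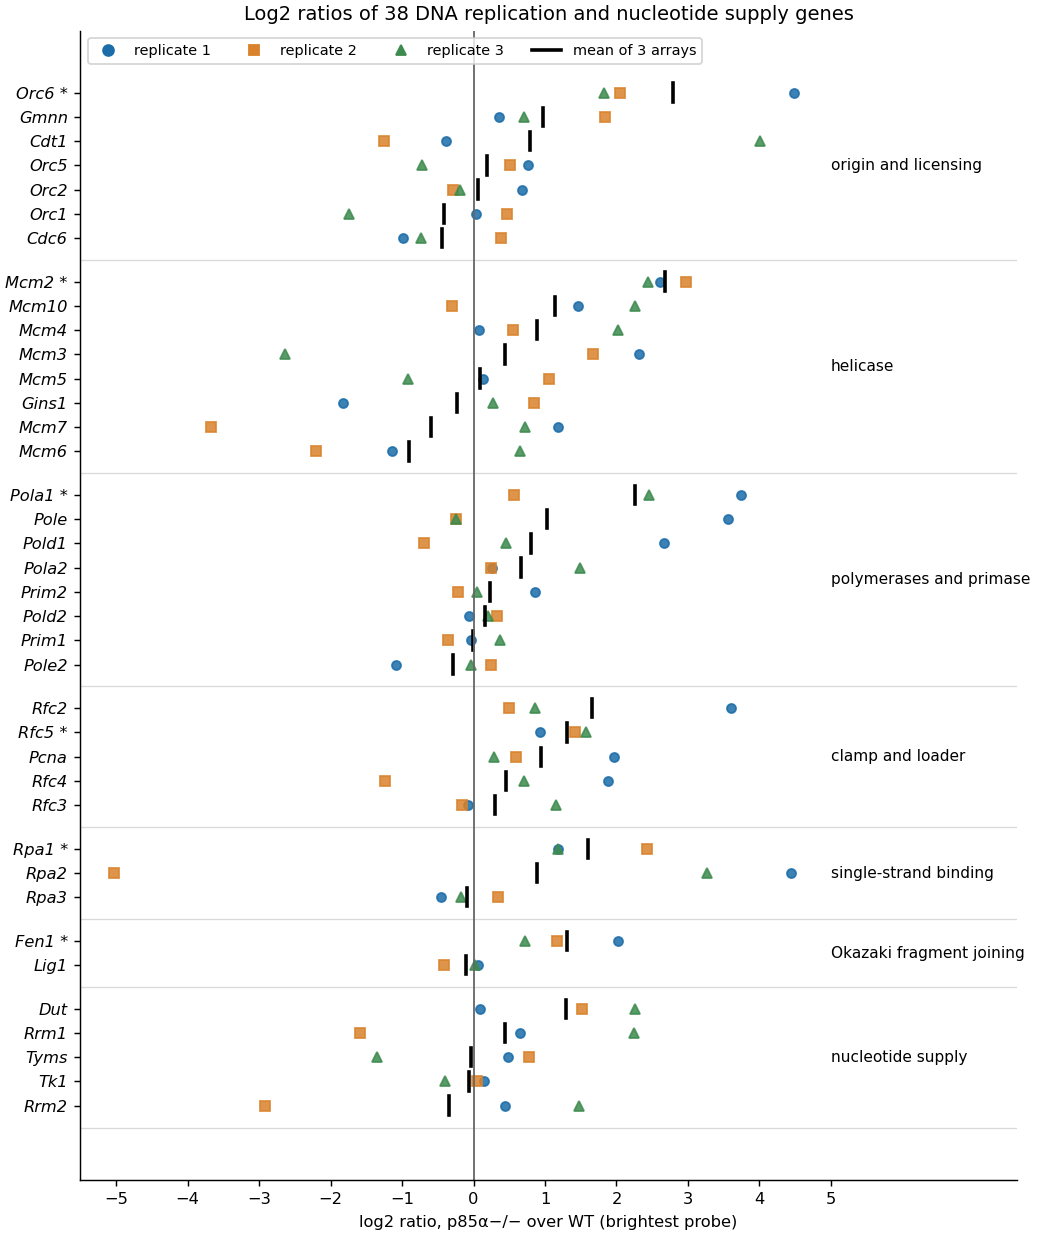
Log2 ratio of *p85α−/−* over WT (x axis) of the brightest probe of 38 genes, grouped by role; each marker is 1 array, each black bar the mean of 3 arrays, and asterisks mark the 6 genes past both criteria. The 3 values of *Mcm2* lie between 2.44 and 2.97, whereas those of *Rpa2* run from −5.03 to 4.44.

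Arrays were compared with each other over the same genes. Across the 38 genes, Pearson's r of the log2 ratios was −0.02 between replicates 1 and 2, 0.25 between replicates 1 and 3, and −0.24 between replicates 2 and 3, as a description over genes, which are not independent. The ratios had the same sign in 22, 24 and 16 of the 38 genes in these pairs (57.9%, 63.2% and 42.1%). Over all gene names r was 0.0062, 0.20 and −0.039, and 49.2%, 56.6% and 46.2% shared a sign, so low agreement was general on these arrays. The mean exceeded the SD between arrays in 9 of the 38 genes (23.7%), close to the 21% over all gene names.

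Among the genes that mark and license origins, 5 of 7 had a mean above 0, and the median was 0.18. *Orc6*, a subunit of the origin recognition complex, was higher past both criteria. Its normalized log2 intensity was 8.37, 8.23 and 7.88 in WT replicates 1, 2 and 3 and 12.85, 10.29 and 9.71 in the *p85α−/−* replicates. Its mean log2 ratio was 2.79 ± 1.47 (SD, n = 3 arrays, adjusted p = 0.908 by limma), and the lowest *p85α−/−* culture lay above the highest WT culture. The WT cultures were close together and the spread came from the *p85α−/−* side, where replicate 1 was highest. The mean was 1.94 without replicate 1. It was 3.15 without replicate 2, when *Orc6* no longer met both criteria.

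The other genes of this group did not pass. *Gmnn*, which encodes geminin, the inhibitor of CDT1, had a mean of 0.97 ± 0.78 and was higher on all 3 arrays. *Cdt1* itself had a mean of 0.79 ± 2.82, since replicate 3 stood at 4.01 and the other arrays were below 0. *Orc5* and *Orc2* had means of 0.18 and 0.06.

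*Orc1* and *Cdc6* were among the 6 genes with the lowest means, and both were dim. *Orc1*, the large subunit of the origin recognition complex, had WT log2 intensities of 6.74, 7.04 and 8.30 and *p85α−/−* log2 intensities of 6.78, 7.51 and 6.55. It was well above background on 1 of 3 arrays in each genotype, and its mean log2 ratio was −0.42 ± 1.17 and 0.25 without replicate 3. *Cdc6*, the loader of the helicase, stood at 7.46, 6.93 and 7.44 in WT and at 6.48, 7.32 and 6.70 in *p85α−/−*, with a mean of −0.45 ± 0.73. The genotypes overlap in both genes.

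In the helicase group, 5 of 8 measured genes had a mean above 0 and the median was 0.27. *Mcm2*, a subunit of the helicase ring, was higher past both criteria. Its log2 intensity was 9.49, 7.12 and 9.29 in WT and 12.11, 10.09 and 11.74 in *p85α−/−*, so that replicate 2 was lower than the others in both genotypes. The log2 ratios of 2.61, 2.97 and 2.44 gave a mean of 2.68 ± 0.27, a fold of 6.39 (unadjusted p = 0.000664, adjusted p = 0.763 by limma). That adjusted p equals the lowest over all probes. The WT channel was not well above background on replicate 2, so the ratio of that array rests on a dim value, and without replicate 2 the mean was 2.53. *Mcm2* still met both criteria when any 1 replicate was left out, but not in the methods' t-test without the pairing by array.

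The other subunits of the same ring did not pass both criteria. *Mcm4*, *Mcm3* and *Mcm5* had means of 0.88 ± 1.01, 0.45 ± 2.69 and 0.09 ± 0.98, and *Mcm7* and *Mcm6* had means below 0. *Mcm7* stood at 11.31, 12.77 and 10.23 in WT and at 12.49, 9.10 and 10.94 in *p85α−/−*. It was higher on replicates 1 and 3 and far lower on replicate 2, with a mean log2 ratio of −0.59 ± 2.68 that became 0.95 without replicate 2.

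*Mcm6* had the lowest mean of the 38 genes. Its log2 intensity was 10.33, 11.80 and 9.71 in WT and 9.19, 9.60 and 10.36 in *p85α−/−*, and the log2 ratios were −1.14, −2.20 and 0.65. The mean was −0.90 ± 1.44, the genotypes overlapped, and without replicate 3 *Mcm6* was lower past both criteria, at −1.67. Beside the ring, *Mcm10*, which helps to activate the helicase, had a mean of 1.14 ± 1.31, and *Gins1*, a subunit of the GINS complex that travels with the helicase, had a mean of −0.24 ± 1.41.

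**Figure D2:**
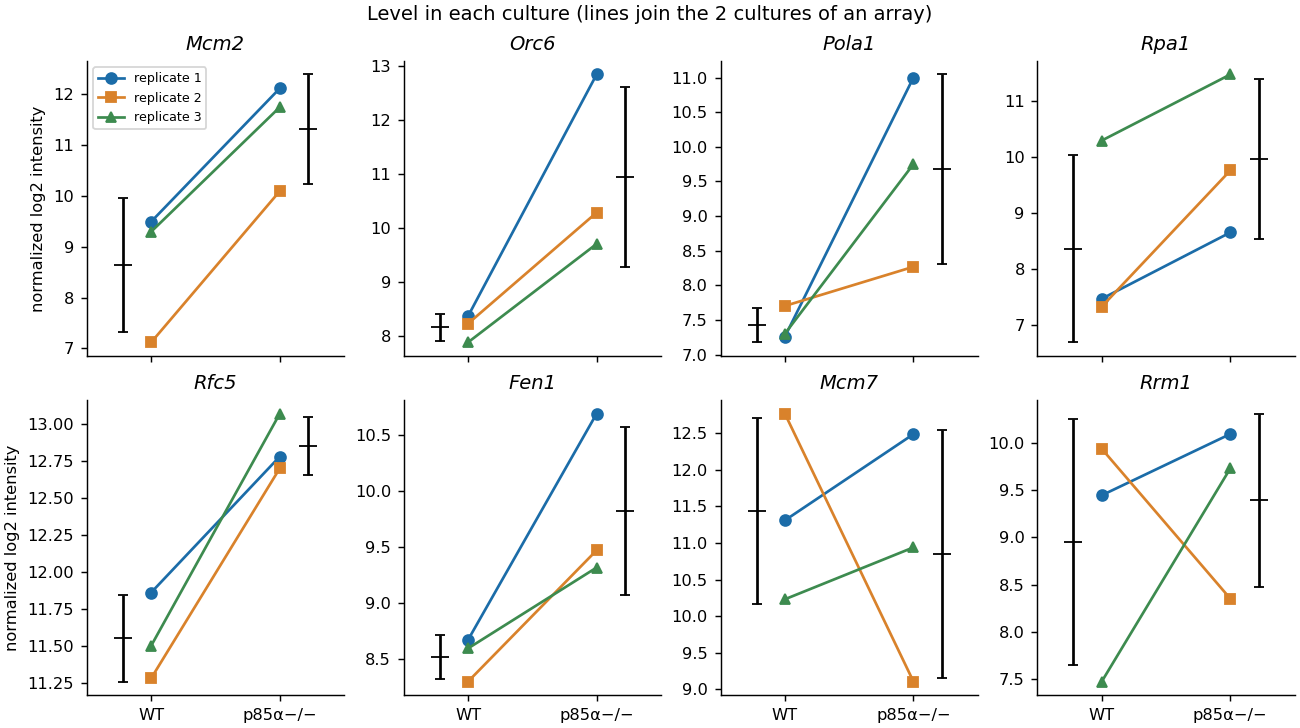
Normalized log2 intensity (y axis, a separate range in each panel) of the brightest probe in WT and *p85α−/−* cultures for the 6 genes past both criteria and for *Mcm7* and *Rrm1*; lines join the cultures of 1 array, and black bars show mean ± SD of 3 cultures. Every line rises in the first 6 panels, while in *Mcm7* and *Rrm1* replicate 2 falls and the other replicates rise.

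Among polymerase and primase genes, 6 of 8 had a mean above 0, with a median of 0.45. *Pola1*, the catalytic subunit of polymerase α, was higher past both criteria. Its log2 intensity was 7.26, 7.70 and 7.30 in WT and 11.00, 8.27 and 9.75 in *p85α−/−*. The genotypes did not overlap, yet the ratios ranged from 0.57 on replicate 2 to 3.74 on replicate 1, with a mean of 2.25 ± 1.60 (adjusted p = 0.908 by limma). Without replicate 1 the mean was 1.51, without replicate 3 it was 2.15, and in both cases *Pola1* no longer met both criteria. Without replicate 2 it was 3.10.

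The partners of *Pola1* in the primase complex showed smaller means. *Pola2*, the second subunit of polymerase α, had a mean of 0.67 ± 0.71 at its brightest probe, which was higher on all 3 arrays. Its other probes had means of 1.15 and −0.42, and neither was higher on all 3 arrays. The primase subunits *Prim1* and *Prim2* had means of −0.01 ± 0.36 and 0.23 ± 0.56. Of the polymerase δ genes, *Pold1*, which encodes the catalytic subunit, had a mean of 0.81 ± 1.70, and *Pold2* had one of 0.16 ± 0.20.

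For polymerase ε, the catalytic subunit gene *Pole* had a mean of 1.02 ± 2.20 that came from replicate 1, at 3.56, while the other arrays were at −0.25 and −0.24. *Pole2*, its second subunit, was dim, with log2 intensities of 7.81, 6.33 and 6.44 in WT and 6.73, 6.58 and 6.41 in *p85α−/−*. It was well above background on 1 of 3 arrays in each genotype, and its mean log2 ratio was −0.29 ± 0.70 and 0.11 without replicate 1.

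All 5 measured genes of the clamp and its loader had a mean above 0, and the median was 0.95. *Rfc5*, a small subunit of the clamp loader, was higher past both criteria and had the least spread of the group. Its log2 intensity was 11.86, 11.28 and 11.50 in WT and 12.78, 12.70 and 13.07 in *p85α−/−*. The cultures of each genotype lay close together, and the mean log2 ratio was 1.31 ± 0.34 (unadjusted p = 0.0099, adjusted p = 0.908 by limma). It was 1.17 without replicate 3, when it no longer met both criteria.

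*Rfc2*, another loader subunit, did not pass. Its log2 intensity was 10.44, 11.69 and 12.84 in WT and 14.04, 12.18 and 13.71 in *p85α−/−*, and its log2 ratios were 3.60, 0.49 and 0.87, with a mean of 1.65 ± 1.70 that was 0.68 without replicate 1. The genotypes overlap at this probe. *Pcna*, the clamp itself, was higher on all 3 arrays with a mean of 0.95 ± 0.89, while *Rfc4* and *Rfc3* had means of 0.45 ± 1.58 and 0.30 ± 0.74.

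Of the 3 genes of RPA, *Rpa1*, the large subunit, was higher past both criteria, with log2 intensities of 7.47, 7.32 and 10.29 in WT and 8.65, 9.76 and 11.47 in *p85α−/−*. WT replicate 3 lay above *p85α−/−* replicates 1 and 2, so the genotypes overlap, but within each array *p85α−/−* was higher, by 1.18, 2.43 and 1.19. The mean was 1.60 ± 0.72 (adjusted p = 0.908 by limma), and *Rpa1* still met both criteria when any 1 replicate was left out. It did not in a limma fit without the pairing by array, nor in the methods' t-test in either form.

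*Rpa2* had the widest spread of the 38 genes, with log2 ratios of 4.44, −5.03 and 3.27 and a mean of 0.89 ± 5.17. *Rpa3*, the small subunit, had a mean of −0.10 ± 0.40 and was well above background on 1 of 3 arrays in each genotype.

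Of the genes that join Okazaki fragments, *Fen1*, the flap nuclease, was higher past both criteria, with log2 intensities of 8.67, 8.30 and 8.59 in WT and 10.69, 9.47 and 9.32 in *p85α−/−*. Its genotypes did not overlap, and its mean log2 ratio was 1.30 ± 0.66 (adjusted p = 0.908 by limma). It no longer met both criteria without replicate 1, at 0.95, or without replicate 2, at 1.37. *Lig1*, the ligase of the same step, had log2 ratios of 0.06, −0.41 and 0.02 and a mean of −0.11 ± 0.26.

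None of the 5 nucleotide supply genes passed both criteria, 2 of 5 had a mean above 0, and the median was −0.04. *Rrm1* and *Rrm2* encode the large and small subunits of ribonucleotide reductase, which turns ribonucleotides into deoxyribonucleotides. *Rrm1* stood at 9.44, 9.93 and 7.48 in WT and at 10.09, 8.35 and 9.73 in *p85α−/−*, with log2 ratios of 0.64, −1.58 and 2.25. *Rrm2* stood at 6.88, 10.24 and 6.93 in WT and at 7.32, 7.31 and 8.41 in *p85α−/−*, with log2 ratios of 0.43, −2.92 and 1.48. Both subunits were higher on replicates 1 and 3 and lower on replicate 2, and their means, 0.44 ± 1.92 and −0.34 ± 2.30, were smaller than the spread between arrays. Without replicate 3 the mean of *Rrm1* was −0.47, and without replicate 2 that of *Rrm2* was 0.96.

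*Dut*, whose enzyme removes dUTP and yields the precursor of thymidylate, had log2 ratios of 0.09, 1.51 and 2.25. Its mean was 1.29 with an SE of 0.52 (adjusted p = 0.908 by limma), and it was higher on all 3 arrays. The thymidylate genes *Tyms*, for the synthase, and *Tk1*, for the salvage kinase of S phase, had means of −0.04 ± 1.15 and −0.07 ± 0.29.

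Probes of the same gene often disagreed. Of the 38 genes, 24 had 1 probe and 14 had several. The probes of 6 of these 14 genes shared the sign of their mean, and those of 8 did not. Of the 16 probes that were not the brightest, 2 were higher past both criteria and 0 were lower, where 2.78% and 1.66% of all probes were. One of the 2 belongs to *Rfc2*, with log2 ratios of 2.80, 1.87 and 2.88 and a mean of 2.52 ± 0.56 (adjusted p = 0.763 by limma), and at this probe the genotypes did not overlap. The other belongs to *Pold1*, with a mean of 2.66 ± 2.11. In contrast, the second probe of *Mcm4* had a mean of −1.99 ± 1.81, against 0.88 for the brightest, and that of *Dut* had −0.15 ± 3.54, against 1.29. That of *Pole* had −1.17 ± 1.91, against 1.02, and was well above background on 1 of 3 arrays in each genotype. The second probe of *Rrm1*, with 0.02 ± 0.06, was not well above background in WT.

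**Figure D3:**
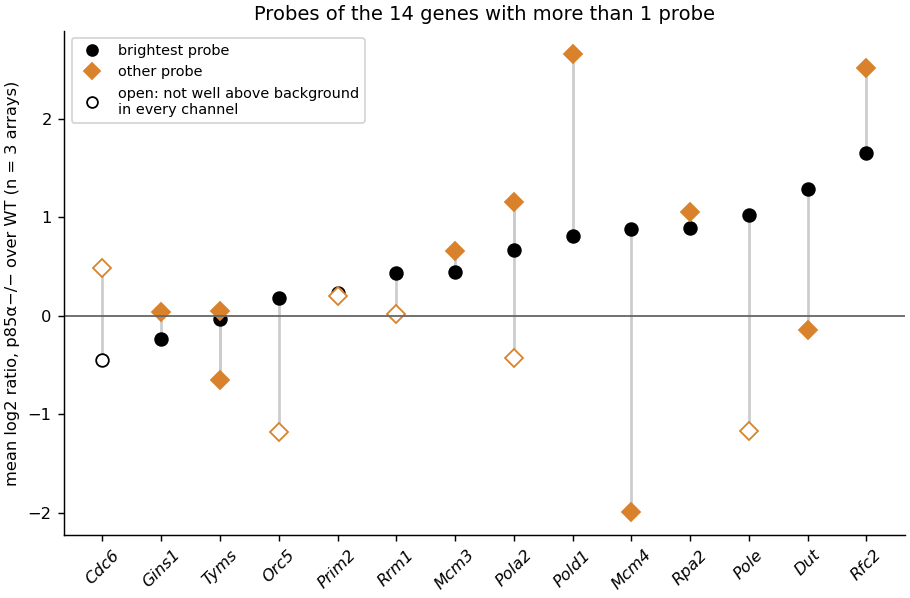
Mean log2 ratio of *p85α−/−* over WT (y axis, n = 3 arrays) for each probe of the 14 genes with several probes (x axis); black circles are the brightest probes, orange diamonds the others, and open symbols were not well above background in every channel. The probes of *Mcm4* lie at 0.88 and −1.99, on opposite sides of 0.

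The 2 genes without a probe under these names were looked for by transcript accession. A probe named *Recc1*, an older name of *Rfc1*, the large subunit of the clamp loader, had log2 ratios of 4.58, 0.61 and 1.90 and a mean of 2.36 ± 2.02. It is not counted above and was added after its values were seen.

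Signal strength bears on these counts. Of the 38 genes, 32 were well above background in all 6 channels. Over these 32 the median log2 ratio was 0.56 and 5 were past both criteria. Over all gene names that were as bright, the median was −0.13, 3.72% were higher past both criteria and 2.87% were lower. The genes outside these 32 are *Mcm2*, *Cdc6*, *Orc1*, *Pole2*, *Prim2* and *Rpa3*.

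Other genes of the pathway were taken from 2 further lists. Of 26 further replication genes, 21 were measured, 16 had a mean above 0 and the median was 0.46. *Pold3*, an accessory subunit of polymerase δ, was higher past both criteria, with log2 ratios of 4.25, 1.67 and 1.45. *Chaf1b*, a subunit of the complex that deposits histones behind the fork, was lower past both criteria, with log2 ratios of −0.47, −1.50 and −1.61. Of 18 further nucleotide supply genes, all 18 were measured, 8 had a mean above 0, the median was −0.09 and 0 passed both criteria by limma (0 at an unadjusted p under 0.05).

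Markers of cell types were read beside these genes. Of 11 mast cell markers, 10 were measured, 9 had a mean above 0, and *Kit* and *Cma1* were higher past both criteria. Of the IgE receptor genes, *Fcer1a*, the chain that binds IgE, was well above background on 3 of 3 arrays in both genotypes, and *Ms4a2*, the beta chain, on 1 of 3 arrays in WT and 3 of 3 in *p85α−/−*. Summed over the list on the linear scale, mast cell marker intensity ran from 21979 to 38682 in WT and from 69223 to 145298 in *p85α−/−*. The sums did not overlap, but they lean on the brightest genes. *Cma1* was the brightest in every *p85α−/−* culture, at log2 intensities of 16.65, 15.52 and 14.93. Genes varied in direction between arrays. *Mcpt4* had a mean of −0.89, *Fcer1a* had log2 ratios of −2.99, 3.32 and 1.39, and *Hdc* had 0.20, −1.68 and 4.34.

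Neutrophil markers differed between the *p85α−/−* cultures. Of 10, 9 were measured, 6 had a mean above 0, and *Ctsg*, *S100a8* and *S100a9* were higher past both criteria. The summed intensity of the 9 markers ran from 9839 to 19811 in WT and was 72138, 6847 and 230580 in *p85α−/−* replicates 1 to 3. These sums lean on *Mpo*, the brightest of the 9 in every culture except *p85α−/−* replicate 2. Its log2 intensity was 12.58, 14.05 and 12.20 in WT and 15.48, 10.68 and 17.59 in *p85α−/−*. *Mpo*, which encodes myeloperoxidase, and *Elane*, a neutrophil protease gene, were lower in *p85α−/−* on replicate 2, with log2 ratios of −3.37 and −1.77, but 5 of the 9 markers had a ratio above 0 there. The summed intensity of the 38 replication and nucleotide supply genes was 52097, 49441 and 44442 in WT and 111121, 38379 and 76149 in *p85α−/−*. On replicate 2 this sum was lower in *p85α−/−* although 23 of the 38 genes had a ratio above 0, and *Rpa2* and *Mcm7* had the lowest ratios, at −5.03 and −3.67. Macrophage markers (7 of 8 measured) summed to 5981 to 8176 in WT and 4472 to 5698 in *p85α−/−*. These sums did not overlap either, with *p85α−/−* lower. Gene by gene, 3 of the 7 (*Mrc1*, *Cd68* and *C1qb*) had a mean above 0, and the median log2 ratio was −0.11. Erythroid markers (8 of 8) summed to 8469 to 14277 in WT and 4776 to 14083 in *p85α−/−*, which overlap, and 0 genes of either list passed both criteria. *Mrc1*, a macrophage marker, was well above background on 0 of 3 WT arrays. The part of other cell types in the replication gene ratios was not tested.

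Promoter motifs were set beside the arrays as a description. Of the 6 genes past both criteria, 1 had a motif (16.7%), and of the 26 others with a promoter sequence, 6 did (23.1%). *Mcm2*, with the lowest unadjusted p among the 38 genes, had none in the window shown above, and *Mcm6*, with the lowest mean, had 3.

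The counts were also computed with other processing. Median centring of each array in place of quantile normalization put 11 genes past both criteria, all higher, and gave a median of 1.24 over the 38 genes. Of all features, 5.99% were then higher past both criteria, against 2.78% with quantile normalization. The scanner's processed signals gave 4 genes, without *Fen1* and *Rfc5*, while 3.73% of all features were higher past both criteria. The mean over the probes of each gene gave 7, with *Rfc2* added, beside 3.09% of all features.

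**Figure D4:**
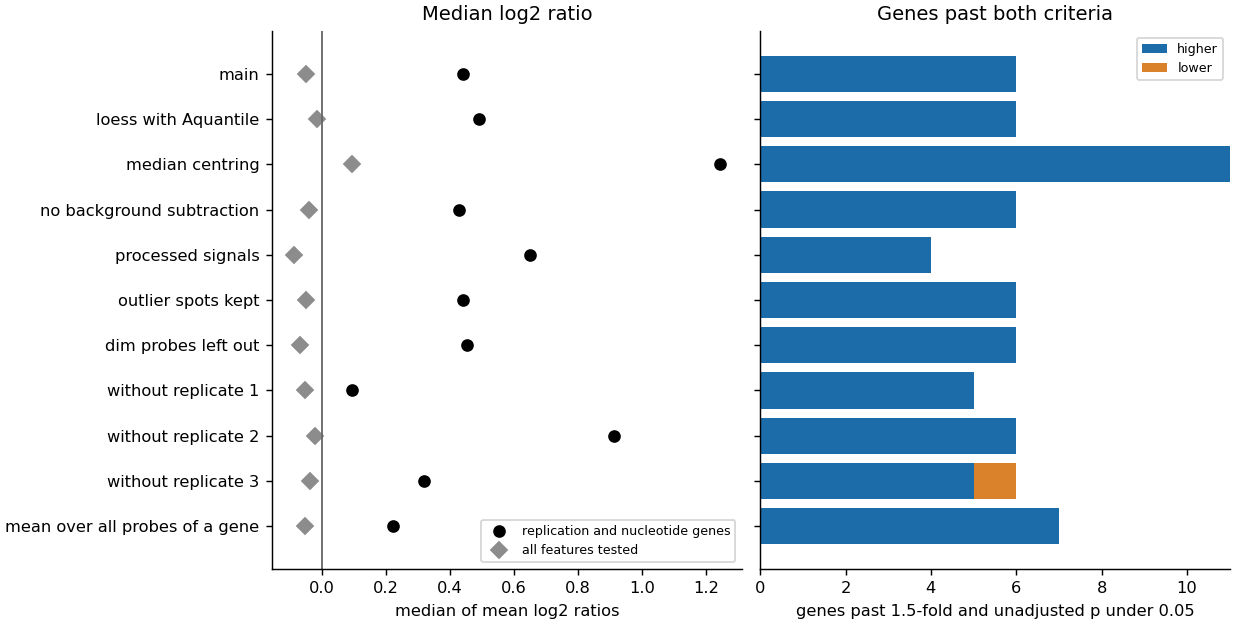
Median of the mean log2 ratios of the replication and nucleotide supply genes (black circles) and of all features tested (grey diamonds) on the left, and number of genes past both criteria on the right, under the main processing (main) and alternatives (y axis). In the settings shown, the median of the 38 genes (35 with dim probes left out) lies between 0.09 and 1.24. The deposited table, the methods' t-test and the fit without pairing by array are not shown.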

How the data were processed

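The authors deposited 1 scanner file per array, extracted with Agilent Feature Extraction 9.5.1.1, holding spot intensity and background intensity without normalization, processed intensity corrected for background and dye, and flags. They also deposited a table with 1 log10 ratio of Cy5 over Cy3 per probe and array. In it, all 40929 values compared for replicate 1 matched the scanner's ratio of the same probe (tolerance 1.5e-05). For replicates 2 and 3, 190 and 226 of 40929 did, so the table served only as an alternative. Where the other values belong was not tested. Its column medians were 0, 0.0245 and −0.00306 on the log10 scale. Its scale, centring and direction are those of the scanner's ratio for replicate 1 and were not settled probe by probe for replicates 2 and 3.

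Mean signals were corrected with normexp (offset 50) against background medians, then quantile normalization of the 6 channels followed, which is what the methods name, in R 4.3.3 with limma 3.58.1. Control and outlier spots were left out and spots of a probe averaged, leaving 41157 of 41174 probes. The log2 ratio within each array was set against 0 in limma (lmFit, eBayes), and p-values were adjusted over all probes by Benjamini-Hochberg. The procedure was tested on simulated data. Median signals were 71.5 to 141.2 for WT and 206.6 to 517.3 for *p85α−/−*. Between 69.4% and 85.3% of WT spots and between 77.3% and 93.8% of *p85α−/−* spots were well above background, and 0 were saturated. All arrays lay on 1 slide. With 3 arrays, their number limits the precision.

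The members and lists were chosen with earlier results of these data known. The genes described with all values are those past both criteria, the 6 highest and 6 lowest means, and *Rrm1*, which the paper names. Alternatives were other normalizations and background corrections, a filter on dim probes, the methods' t-test, no pairing by array, the mean over probes, and each replicate left out.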

Additional observations from a re-analysis of the deposited data

How the results depend on the processing

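The 38 genes gave 6 past both criteria and a median log2 ratio of 0.44. Median centring gave 11, adding *Dut*, *Gmnn*, *Mcm10*, *Mcm4* and *Pcna*, and a median of 1.24, but it also shifted the median of all probes by 0.14, and relative to all probes the median was 1.15. The methods' t-test by array gave 2, *Mcm2* and *Rfc5*. Unpaired, that test gave 4, without *Mcm2* and *Rpa1*. Of all features, 1.16% by array and 1.48% unpaired were higher past both criteria, against 2.78% in the main fit. The scanner's processed signals gave a median of 0.65 and 4 genes, without *Fen1* and *Rfc5*, and averaging each gene's probes gave 0.22 and 7, adding *Rfc2*. In these settings 3.73% and 3.09% of all features were higher past both criteria. Leaving out 1 replicate gave 5 to 6 genes past both criteria, with 4 of the 6 kept each time, and a median from 0.095 to 0.91. Without replicates 1, 2 and 3 in turn, 2.70%, 3.65% and 2.97% of all features were higher past both criteria. *Fen1* and *Pola1* were lost without replicate 1, *Fen1* and *Orc6* without replicate 2, and *Pola1* and *Rfc5* without replicate 3. Signs of the mean changed in 0 to 12 of the 38 genes under these alternatives. Among the genes described with all values, they changed with median centring for *Mcm7* (0.52), with processed signals for *Rrm2* (0.25), and with the mean over probes for *Cdc6* (0.017). With replicates left out, *Pole2* ran from −0.56 to 0.11, *Mcm7* from −1.48 to 0.95, *Rrm2* from −1.25 to 0.96, *Orc1* from −0.86 to 0.25 and *Rrm1* from −0.47 to 1.45. The cause was not tested. Of 13 alternatives, *Mcm2* met both criteria in 12, *Orc6* and *Rfc5* in 11, *Pola1* and *Rpa1* in 10 and *Fen1* in 9. Without the pairing by array (no replicate block), 6 genes passed, with *Dut* in place of *Rpa1*, and 2.45% of all features were higher past both criteria. Between 22 and 32 of the genes lay above 0 over these alternatives, and no probe had an adjusted p under 0.05 in limma or in the methods' t-test under any of them. In the deposited table most values of replicates 2 and 3 differ from the scanner's ratio of the probe they are listed under. Means over its 3 columns therefore cannot be taken as measurements of the named gene and bear on none of the results. This table gave 2 genes past both criteria and a median of −0.035. Its means were −0.41 at *Fen1*, −1.42 at *Rfc5*, 0.44 at *Mcm6* and 0.48 at *Mcm7*, with the sign turned at each of these.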
